A study of Arabidopsis thaliana with 6 samples.

Results

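Wide peaks are the peaks longer than 1000 bp in either of 2 peak lists from chromatin immunoprecipitation and sequencing (ChIP-seq) of the transcription factor SEPALLATA3 (SEP3) in Arabidopsis thaliana. They were chosen by their width alone, and there were 310 of them among 5826 peaks. The list of the line with wild-type SEP3 (SEP3wt) gave 174 of its 2225 peaks, which is 7.82%. The list of the line with a SEP3 that cannot form tetramers (SEP3tet) gave 136 of its 3601 peaks, which is 3.78%. Peaks of both lists that overlapped by at least 1 bp were joined into pairs, and each peak was described by the protein-coding genes it touched.

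The SEP3wt plants had the genotype pSEP3:SEP3wt;sep1,2,3 and the SEP3tet plants the genotype pSEP3:SEP3tet;sep1,2,3. Both groups therefore share the sep1,2,3 background and a transgene driven by the SEP3 promoter, and reads of the transgene were not told apart from those of the native SEP3 copy. Each line gave 2 ChIP samples with an antibody against native SEP3 and 1 mock sample with pre-immune serum, all from about 1 g of inflorescence, with growth at 22 °C and a day of 16 h light and 8 h dark. The deposited values analysed were 1 peak list per line, so no value per replicate was held and no difference between lines can be judged by replicate spread. Sequencing depth is unknown, and the mock samples' signal was not analysed here.

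SEP3 is a MADS-domain protein of floral organ identity that binds DNA as a dimer and, as a tetramer with its partners, can hold a pair of binding sites together. A sequence-specific factor bound at a short site usually gives a narrow ChIP-seq peak, whose highest point, the summit, lies near that site. A wide peak is a long stretch of positions that the peak caller joined, and a gap in the enrichment can split such a stretch into several peaks.

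The wide peaks were few but long, and they lay on all 5 chromosomes. Their median width was 1515 bp in SEP3wt, with a range of 1002 to 5224 bp, and 1599.5 bp in SEP3tet, with a range of 1004 to 5102 bp. They added up to 298 kb in SEP3wt, or 33.1% of all bases under peaks of that list, and to 244 kb in SEP3tet, or 18.2%. Chromosome 1 held 54 of the SEP3wt and 46 of the SEP3tet wide peaks, and chromosome 2 held the fewest, 24 and 17.

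The authors' fold enrichment, the height of a peak over the background of the peak caller, was 5.01 at the median wide peak of SEP3wt, with a range of 2.29 to 10.8. The median wide peak stood at percentile 84.3 of its own list by fold. In SEP3tet the median was 4.73, with a range of 2.24 to 11.9, at percentile 75.2 of its list. Wide peaks thus covered most of the range of fold, and were not all tall. Fold and width come from the same ChIP signal, so these values are a description. Among wide peaks, width and fold had a Spearman correlation of 0.32 in SEP3wt (n = 174 peaks) and 0.14 in SEP3tet (n = 136 peaks), against 0.58 and 0.65 among narrower peaks.

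Values on either side of the threshold were close. The 3 SEP3wt peaks just above it lay at MSS3, a calmodulin-like protein gene, with 1002 bp, at RAV1 with 1002 bp and at the kinase gene MKK9 with 1004 bp. The 3 just under it were 995 bp at AT2G23120, 995 bp at AT4G27652 and 988 bp at the extensin-like gene LRX3. In SEP3tet, peaks at DOF1 (1004 bp), RBCS1A (1027 bp) and AT2G23120 (1033 bp) were just above, and peaks at CAF1a (997 bp), DYL1 (982 bp) and DPA4 (950 bp) just under. AT2G23120, with 995 and 1033 bp, thus counts as wide in SEP3tet alone.

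Wide peaks lay along genes, and usually along most of the length of 1 gene. Of the SEP3wt wide peaks, 160 had their summit in a protein-coding gene (92.0%, exact 95% interval 86.9 to 95.5), against 45.3% of all peaks of the list. Of the SEP3tet wide peaks, 118 did (86.8%, 79.9 to 92.0), against 39.8% of all peaks. These intervals, and the later ones, cover counting error only. Of the bases under wide peaks, 86.5% in SEP3wt and 81.6% in SEP3tet lay in protein-coding genes, beside 54.1% of the bases from each chromosome's start to the end of its last gene and 45.0% and 39.7% of the bases under narrower peaks.

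The difference was also there beside strong narrower peaks. Among narrower peaks with an authors' −log10 q of at least 10, 27.9% of SEP3wt and 28.0% of SEP3tet summits lay in a protein-coding gene. The bases of those peaks lay in genes to 30.9% and 30.5%, against 85.1% and 77.8% for wide peaks past the same q. The share of summits in genes changed with width near the threshold and not only above it, as the plot by width shows. In SEP3wt it was 40.9% for peaks of 300 to 500 bp, 51.4% for 500 to 750 bp, 76.1% for 750 to 1000 bp and 90.6% for 1000 to 1500 bp. In SEP3tet these shares were 34.4%, 39.1%, 60.6% and 81.4%.

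**Figure D1:**
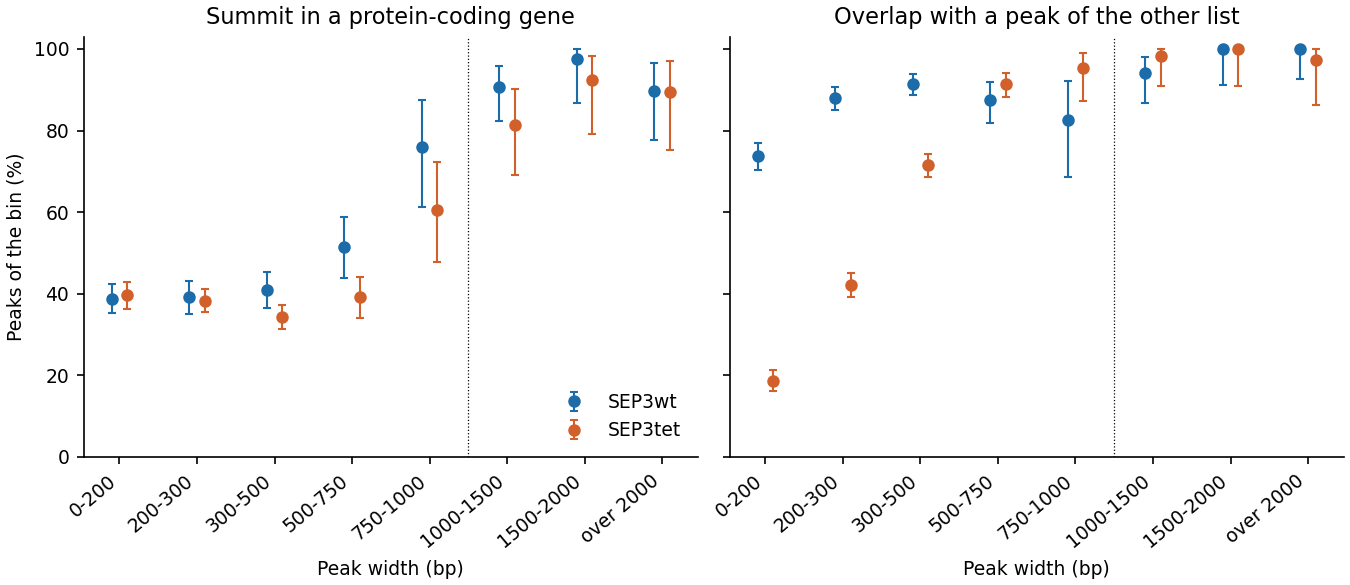
Share of peaks (%, y axes) with the summit in a protein-coding gene (left) and with an overlap with a peak of the other list (right), by peak width in bp (x axis), for SEP3wt (blue) and SEP3tet (orange); bars are exact 95% intervals for counting error over peaks, and the dotted line is the 1000 bp threshold. In SEP3wt the share in genes goes from 38.7% at up to 200 bp to 97.5% at 1500 to 2000 bp, and in SEP3tet from 39.6% to 92.3%.

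Most wide peaks touched a single gene. In SEP3wt 6 touched none, 111 touched 1 and 57 touched 2 protein-coding genes; in SEP3tet the numbers were 8, 81 and 47, and no wide peak touched more than 2. The gene with most overlap, called the main gene here, was covered over a median of 77.5% of its length in SEP3wt and 82.0% in SEP3tet, a share that depends on the width by which the peaks were chosen. At least 50% of the main gene was covered by 134 SEP3wt and 106 SEP3tet wide peaks, and the whole gene by 6 and 15.

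Most wide peaks ran past an end of their main gene. Of 168 SEP3wt wide peaks with a main gene, 54 stayed inside it, 108 ran past 1 of its ends and 6 past both ends. In SEP3tet the numbers were 32, 81 and 15 of 128. Peaks that ran past an end did so by a median of 338.5 bp in SEP3wt and 325 bp in SEP3tet. The main genes were not long ones: their median length was 1957.5 bp in SEP3wt and 1943.5 bp in SEP3tet, against 2078 bp for all protein-coding genes. Peak width and main gene length had a Spearman correlation of 0.31 over 168 SEP3wt and 0.43 over 128 SEP3tet wide peaks, against −0.08 among narrower SEP3wt peaks.

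Together the wide peaks touched 245 protein-coding genes in either line, which is 0.893% of the 27444 in the gene table. The SEP3wt peaks touched 220 of these (0.802%) and the SEP3tet peaks 174 (0.634%), with 149 in both. A few peaks covered at least 50% of each of 2 genes, 7 in SEP3wt and 3 in SEP3tet. Those wide in both lists lay over AT1G32630 and MYC2, a central transcription factor of jasmonate signalling, with 2282 bp in SEP3wt and 2408 bp in SEP3tet, over the calmodulin-like gene TCH3 with AT2G41105, and over CT-BMY with AT4G17085. Those that covered both genes to this extent in SEP3wt alone were at EXLA1 and HTB9, CP12-2 and BZIP53, AT4G24380 and AFB4, and AT5G42050 and AT5G42053. Some of these genes overlap each other, so part of the covered bases is the same. A single SEP3wt summit lay in both AT1G32630 and MYC2, as at TCH3 with AT2G41105 and at AT4G24380 with AFB4.

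The widest peak of each list covered no protein-coding gene but a transcribed pseudogene, AT1G79245. In SEP3wt it ran over 5224 bp (chromosome 1, 29804345 to 29809568, build TAIR10), with a fold of 9.35, and in SEP3tet over 5102 bp (29804463 to 29809564), with a fold of 4.81. Both covered 100% of the pseudogene, which took up 94.2% of the SEP3wt peak. The summits lay 36 bp apart. The nearest protein-coding gene to the summit was AGC1.7, a kinase gene.

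In several of the next widest pairs the 2 lists gave nearly the same edges. LOX3, a lipoxygenase of jasmonate synthesis, had peaks of 4330 bp in SEP3wt (chromosome 1, 5977201 to 5981530; fold 5.01) and 4124 bp in SEP3tet (fold 4.13), which covered 100% and 94.4% of the gene. CIPK9, a kinase that acts with calcium sensors, had peaks of 4228 bp (chromosome 1, 63409 to 67636; fold 6.04) and 4233 bp (fold 4.99), with 99.6% of the wider one shared. The calcium pump gene ACA1 had peaks of 3514 and 3312 bp, and AT1G61890 peaks of 3395 and 3436 bp. In these 4 genes the lines differed by 206 bp or less.

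AT4G34150 was also close in width, with 3057 and 2959 bp. Others of the widest pairs differed more. AT1G56660 had 1 SEP3tet peak of 3147 bp over SEP3wt peaks of 492 and 2455 bp. AT4G32020 had 2500 bp with the highest fold among SEP3wt wide peaks, 10.8, beside 2974 bp and 5.73 in SEP3tet. ERD4, an early dehydration response gene, held 1 peak of 3222 bp in SEP3wt and 3 overlapping it in SEP3tet, of 2180, 696 and 558 bp. At CPK28, a calcium-dependent protein kinase gene, 1 SEP3wt peak of 3524 bp (chromosome 5, 26455816 to 26459339; fold 4.79) lay over 4 SEP3tet peaks of 826, 391, 664 and 220 bp, with folds of 2.09 to 3.35. As the map of these loci shows, the 4 CPK28 pieces lie within the SEP3wt peak, whereas the first ERD4 piece starts outside it.

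**Figure D2:**
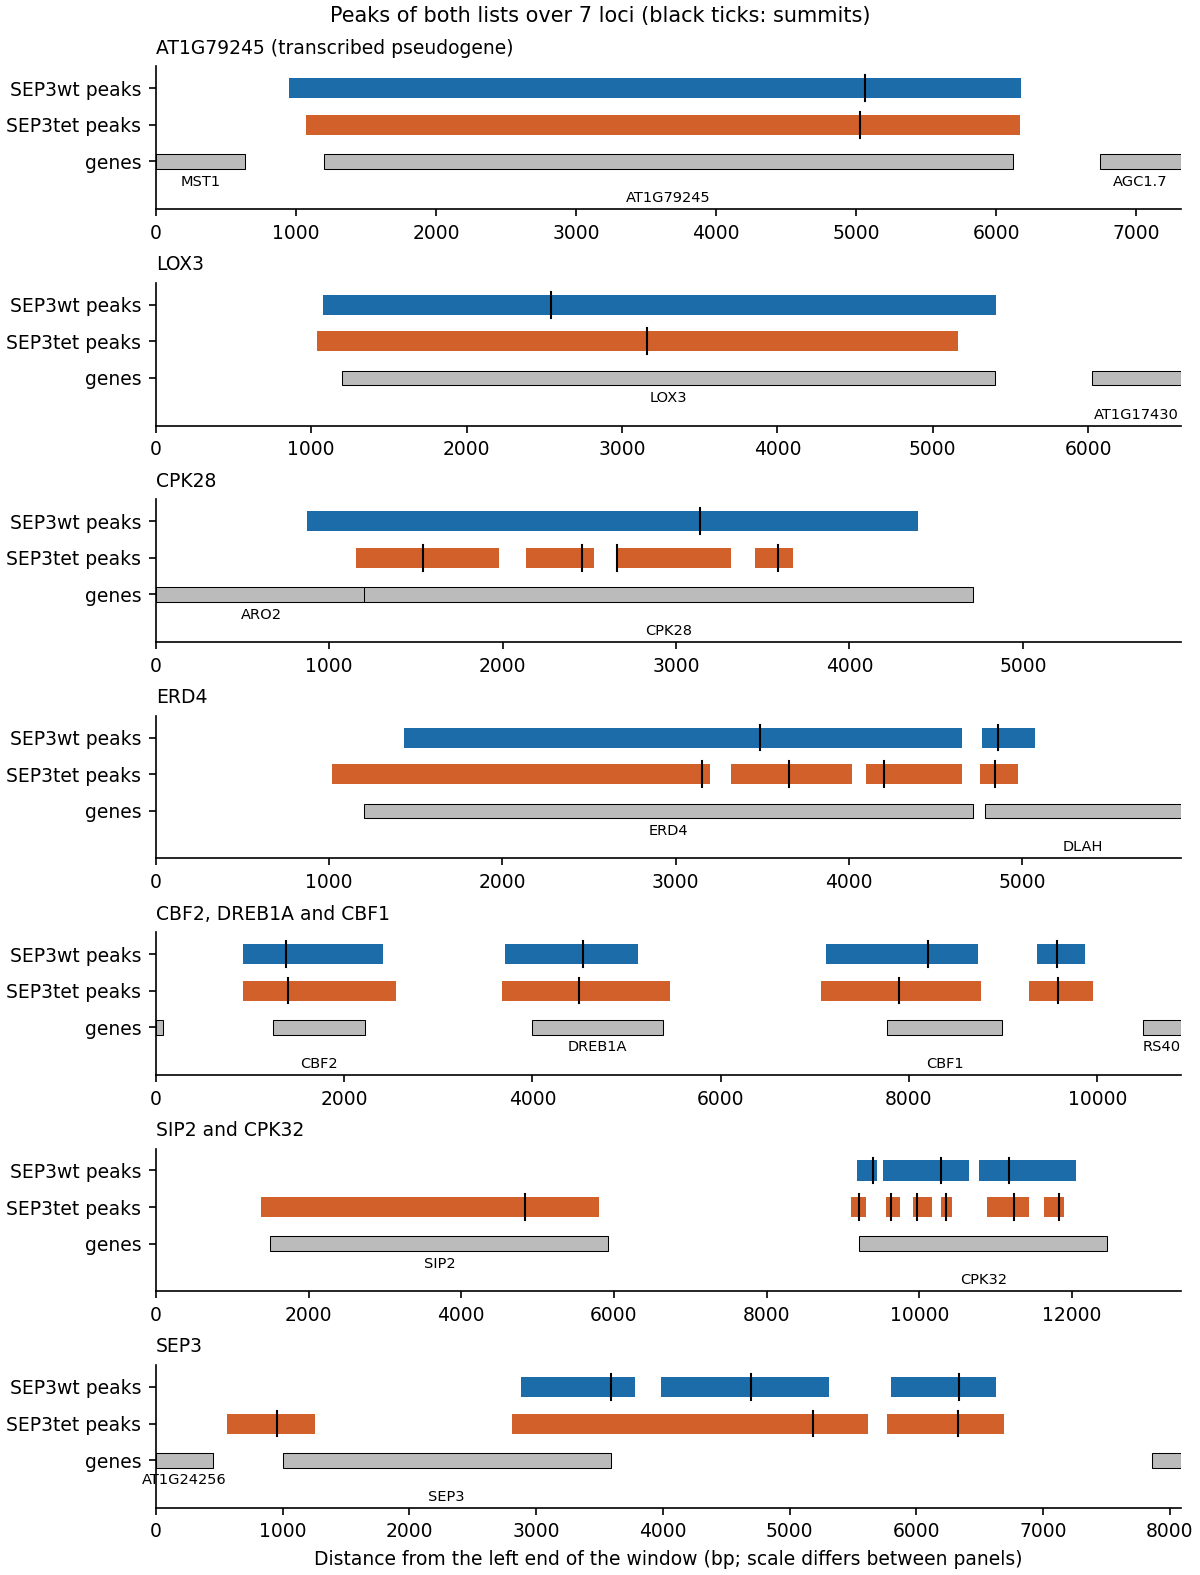
Peaks of SEP3wt (blue) and SEP3tet (orange) with their summits (black ticks), and genes of the gene table (grey), over 7 loci. Not every gene is drawn: the non-coding genes AT4G07385 and AT4G03125, partly under the DREB1A and CBF1 peaks, are left out. The x axis is the distance in bp from the left end of each window, and its scale differs between panels. Peaks run along AT1G79245 and LOX3 in both lists, CPK28 has 1 peak of 3524 bp in SEP3wt and 4 pieces in SEP3tet, and the SIP2 peak of 4428 bp is in SEP3tet alone.

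Nearly every wide peak overlapped a peak of the other list. This was so for 169 of 174 in SEP3wt, where 84.7% of all peaks overlapped one, and for 134 of 136 in SEP3tet, where 53.3% of all peaks did. Narrower peaks with a −log10 q of at least 10 overlapped the other list in 99.0% of SEP3wt and 85.1% of SEP3tet cases. A wide SEP3wt peak often lay over several SEP3tet peaks: 54 of them (31.0%) did, up to 4 each. For wide SEP3tet peaks the number was 16 (11.8%). A long peak has room for several others, so these shares were not compared with those of narrower peaks.

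The summits of overlapping wide peaks lay a median of 127 bp apart from the SEP3wt side and 112 bp from the SEP3tet side. They lay within 100 bp of each other for 43.8% and 48.5% of the wide peaks. Width limits how far apart summits can be, so these distances are a description of the wide peaks alone.

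Joining each wide peak to the peak of the other list it overlapped most gave 188 pairs, of which 116 were wide in both lists, 54 in SEP3wt alone and 18 in SEP3tet alone. The SEP3wt peak was the wider in 112 pairs and the SEP3tet peak in 76 (59.6% wider in SEP3wt). In the 54 and 18 pairs wide in 1 list alone, the width threshold fixed which peak was the wider. The share over all 188 pairs is therefore no measure of a lean between the lines. Where both peaks were wide, 58 were wider in each line, with a median difference of 1 bp, and 92.2% of the wider peak was shared at the median. Among the 119 pairs with no further overlap on either side, 57 were wider in SEP3wt and 62 in SEP3tet (47.9%). In pairs wide in SEP3wt alone the median SEP3tet partner measured 560.5 bp, and in pairs wide in SEP3tet alone the median SEP3wt partner measured 669 bp. Since the threshold chose these pairs, the widths carry no test. Over the 116 pairs wide in both, the widths of the 2 lists had a Pearson correlation of 0.87 and a Spearman correlation of 0.76, as a description of pairs that share a locus.

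**Figure D3:**
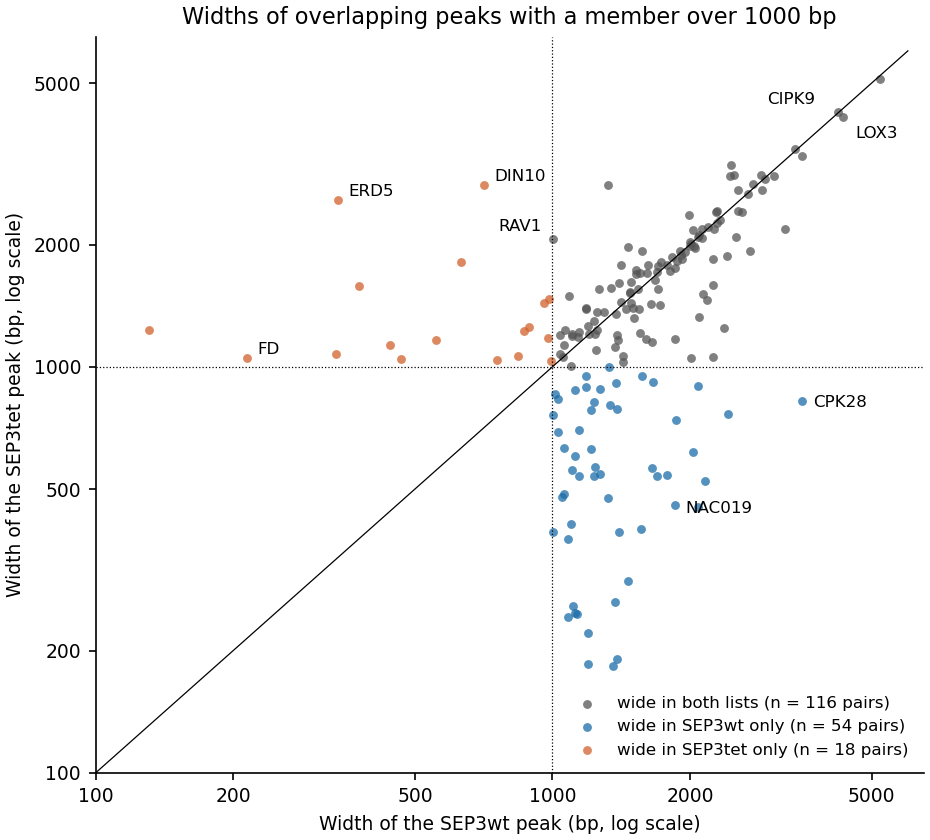
Width of the SEP3tet peak (bp, log scale, y axis) against that of the SEP3wt peak (bp, log scale, x axis) for 188 overlapping pairs with a member over 1000 bp: wide in both lists (grey, 116 pairs), in SEP3wt alone (blue, 54) and in SEP3tet alone (orange, 18); the line marks equal widths. Pairs wide in both lie along the line up to 5224 and 5102 bp, and CPK28, ERD5 and DIN10 lie far from it.

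The wide peaks, with the peaks joined to them by overlap, formed 194 separate regions. Of these, 115 had a wide peak in both lists, 59 in SEP3wt alone and 20 in SEP3tet alone. A wide peak that overlapped no peak of the other list counts as a region of its own. In 42 regions 1 SEP3wt peak lay over several SEP3tet peaks, and in 13 regions 1 SEP3tet peak lay over several SEP3wt peaks. Counting every peak of the regions, narrow ones included, SEP3wt had 321 kb under peaks and SEP3tet 302 kb.

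Among the pairs wide in SEP3wt alone, CPK28 had the largest difference in width. After it came A/N-InvC, an invertase gene, with 2421 bp in SEP3wt and 765 bp in SEP3tet. OPCL1, a CoA ligase of jasmonate synthesis, had 2162 and 523 bp, and LOX4, another lipoxygenase of that pathway, had 2031 and 618 bp. RD19, a dehydration-induced protease gene, had 2082 and 451 bp. At each of these 4 genes the SEP3wt peak overlapped 2 or 4 SEP3tet peaks, so these genes were covered in pieces there.

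Among the pairs wide in SEP3tet alone, ERD5 had the largest difference in width. This gene, which encodes proline dehydrogenase, had 340 bp in SEP3wt (fold 2.62) and 2571 bp in SEP3tet (chromosome 3, 12448372 to 12450942; fold 4.86). DIN10, a raffinose synthase gene by its synonyms in the gene table, had 2809 bp in SEP3tet over 3 SEP3wt peaks of 708, 644 and 241 bp. HSFC1, a heat shock transcription factor gene, had 378 bp in SEP3wt and 1585 bp in SEP3tet. AT5G25280 had 630 and 1817 bp, and the sugar transporter gene STP1 had 131 and 1233 bp. ERD5, DIN10, HSFC1 and AT5G25280 each held several SEP3wt pieces under 1 SEP3tet peak, the reverse of CPK28. The further SEP3wt pieces measured 165 bp at ERD5, 181 and 255 bp at HSFC1 and 145 bp at AT5G25280.

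Only 7 wide peaks overlapped no peak of the other list, and 5 of them were in SEP3wt. These lay at AVP1, a vacuolar proton pump gene (1086 bp, fold 2.57), at the light-harvesting protein genes CAB2 (1095 bp) and LHCB2.1 (1143 bp), at BAM1 (1141 bp, fold 3.43), here the beta-amylase gene AT3G23920, and at AT3G62550 (1346 bp, fold 3.65). In SEP3tet they lay at AT1G25275 (1113 bp, fold 2.93) and at SIP2, a raffinose synthase family gene. The SIP2 peak was one of the longest of all, with 4428 bp (chromosome 3, 21288625 to 21293052), a fold of 4.75 and a −log10 q of 11.8, and covered 97.3% of the gene. The other 6 were between 1086 and 1346 bp long.

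Some wide peaks were neighbours. In 14 cases 2 regions lay within 5 kb of each other, where a wide peak without a partner also counts as a region. Among them were the dehydrin genes COR47 and ERD10 (1850 bp apart). CAB2, with a peak in SEP3wt alone, lay 2153 bp from the region at CAB1. The gene cluster of the cold-response factors CBF2, DREB1A (CBF3) and CBF1 had a wide peak over each gene in both lists, and the regions they formed lay 1125 and 1605 bp apart. The SIP2 peak, in SEP3tet alone, lay 3713 bp from a region at CPK32, a further calcium-dependent protein kinase gene. The wide peaks at CPK32 were in SEP3wt alone, so SIP2 and CPK32 were not neighbouring wide peaks of the same list.

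Wide peaks touched many genes of cold and dehydration response. Of 42 such genes, wide peaks touched 13 in SEP3wt, 12 in SEP3tet and 14 in either (33.3%), beside 0.893% of all protein-coding genes. Peaks of any width touched 19 of the 42 in each line, beside 4.02% of all protein-coding genes in SEP3wt and 6.46% in SEP3tet. All groups here were chosen with earlier results of these data known, and their counts carry no test. CBF2 had widths of 1489 bp in SEP3wt and 1621 bp in SEP3tet and folds of 9.57 and 9.29, and both peaks covered 100% of the gene. DREB1A had 1415 and 1784 bp, and CBF1 1607 and 1702 bp. Each of these 3 peaks was wider in SEP3tet.

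Several dehydration response genes of the group had a wide peak in both lists. ERD4 had 3222 bp in SEP3wt and 2180 bp in SEP3tet for its widest peak. ERD7 had 2872 and 2721 bp, ERD15 had 1728 and 1816 bp, and the dehydrin genes ERD10 and ERD14 had 1699 and 1556 bp and 1480 and 1525 bp. LTI78 (RD29A), a cold and drought marker gene, had 1988 and 2372 bp, and the dehydrin gene COR47 had 1401 and 1607 bp. The 3 that were wide in 1 list alone were RD19 and DREB2A on the SEP3wt side and ERD5 on the SEP3tet side. For DREB2A the widest peaks measured 1104 bp in SEP3wt and 557 bp in SEP3tet, and each list had 2 peaks on the gene.

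**Figure D4:**
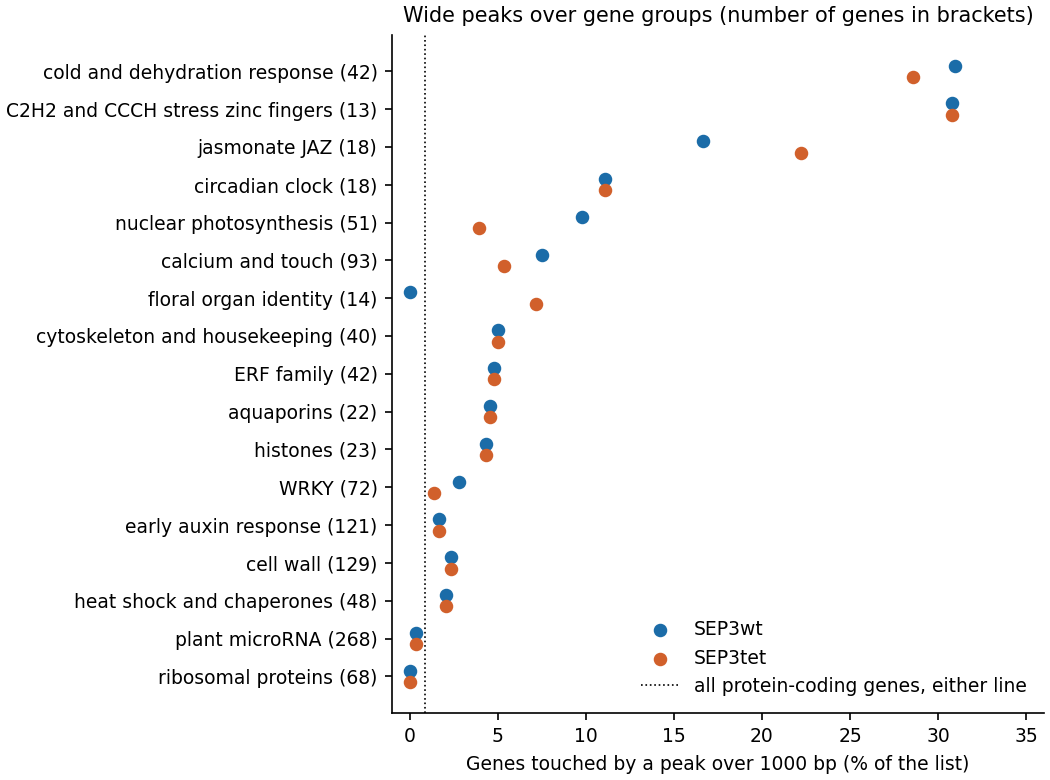
Share of the genes of each group touched by a wide peak (%, x axis) in SEP3wt (blue) and SEP3tet (orange), with the number of genes in brackets; the dotted line is the share of all protein-coding genes touched in either line, 0.893%. The cold and dehydration group, at 31.0% in SEP3wt and 28.6% in SEP3tet, and the zinc finger group, at 30.8% in both, lie furthest right.

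Stress zinc finger and jasmonate repressor genes were touched in 4 members each. These are 30.8% and 22.2% of the groups in either line, beside 0.893% of all protein-coding genes. Of 13 zinc finger genes, wide peaks touched the same 4 in both lists: SZF1 (2862 bp in SEP3wt and 2972 bp in SEP3tet) and CZF1 (2450 and 2946 bp), both of the CCCH type, and STZ (1141 and 1215 bp) and RHL41 (ZAT12; 1238 and 1203 bp), both of the C2H2 type. Of 18 JAZ and TIFY genes, which include the repressors of jasmonate response, JAZ1 (1926 and 1845 bp), JAZ5 (1376 and 1351 bp) and TIFY7 (JAZ9; 2249 and 1592 bp) were touched in both. JAZ10 had 979 bp in SEP3wt and 1175 bp in SEP3tet. Each of these widths belongs to the list's widest peak on the gene.

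The calcium and touch group was listed by CML, CAM, TCH, CPK, CBL and CIPK symbols, with SRC2 added. It leaves out the calmodulin-like gene MSS3, which has a SEP3wt peak of 1002 bp. Of its 93 genes, 7 were touched in SEP3wt and 5 in SEP3tet (7.53% in either, beside 0.893% of all protein-coding genes). CIPK9, the cold-regulated gene SRC2 (1908 and 1888 bp), TCH2 (1299 and 1367 bp), TCH3 (1341 and 1561 bp) and TCH4 (1783 and 1780 bp) were touched in both, and CPK28 and CPK32 in SEP3wt alone. TCH2 and TCH3 encode calmodulin-like proteins, and TCH4 a cell wall enzyme that is also in the cell wall group. In the cell wall group, AGP15 and AGP1, of the arabinogalactan proteins, were touched as well, 3 of 129 genes in all (2.33%).

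Photosynthesis genes differed between the lists in number, with 5 of 51 touched in SEP3wt and 2 in SEP3tet. These are 9.80% and 3.92%, beside 0.802% and 0.634% of all protein-coding genes. RBCS1A, a small subunit gene of Rubisco, had 1 SEP3wt peak of 1425 bp over SEP3tet peaks of 1027 and 302 bp. The light-harvesting gene LHB1B2 had 1391 bp in SEP3wt and 1165 bp in SEP3tet. CAB1 had 1 SEP3wt peak of 1146 bp over SEP3tet peaks of 501 and 537 bp, so it was covered in pieces there. CAB2 and LHCB2.1 had no SEP3tet peak. Peaks of any width touched 20 of the 51 genes in SEP3wt and 11 in SEP3tet, whereas over all protein-coding genes the share was lower in SEP3wt, 4.02%, than in SEP3tet, 6.46%. With 1 list per line this difference has no replicate check.

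The remaining groups stand beside 0.893% of all protein-coding genes touched in either line. They hold genes found by name, so relatives under other names are not counted. Unless more are given, each width belongs to the list's widest peak on the gene. Clock genes had 2 of 18 touched (11.1%), GRP7 (1618 and 1783 bp), an RNA-binding protein gene of the clock output, and PRR5 (1856 and 1170 bp). PRR5 held 3 SEP3wt and 5 SEP3tet peaks in all. The ERF group, listed by ERF, RAP2 or DEAR symbols and not the whole family, had RAP2.4 (2193 and 2204 bp) and ERF4 (2544 and 2719 bp), 2 of 42 (4.76%). Of 72 WRKY genes (2.78% touched in either line), WRKY40 had 1484 and 1440 bp. WRKY70 had 1 SEP3wt peak of 1663 bp over SEP3tet peaks of 918 and 699 bp. The ubiquitin genes UBQ10 (2256 and 2184 bp) and UBQ11 (2079 and 2085 bp) were the 2 touched among the 40 listed cytoskeleton and housekeeping genes (5%). The auxin group had DFL2, AT2G35290 and AT4G34760, 3 of 121 (2.48%). The histones had HTB9, 1 of 23 (4.35%), and the aquaporins PIP2E, 1 of 22 (4.55%). The heat shock group was listed by HSP, HSC, BIP, HSFA and HSFB symbols, so it leaves out HSFC1. It had BIP3, 1 of 48 (2.08%), at the edge of the SRC2 peak. The microRNA genes had MIR5651, 1 of 268 (0.373%), inside the peak of RDUF1, and the ribosomal protein genes 0 of 68.

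Of the 14 floral organ identity genes, the best known class of SEP3 targets, wide peaks touched SEP3 alone. That is 7.14% in either line, beside 0.893% of all protein-coding genes, and rests on this 1 gene. SEP3 had a SEP3tet peak of 2810 bp (chromosome 1, 8595343 to 8598152, fold 5.01, −log10 q 25.4), where SEP3wt had peaks of 900 and 1322 bp with folds of 2.70 and 2.29. The summits of the SEP3tet peak and of the 1322 bp peak lay 1596 and 1106 bp outside the gene. Peaks of any width touched 5 of the 14 genes in SEP3wt and 6 in SEP3tet, beside 4.02% and 6.46% of all protein-coding genes. Because both transgenes carry the SEP3 promoter, reads from the native locus and from the transgene cannot be told apart here.

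A minority of wide peaks had their summit outside every protein-coding gene, 14 in SEP3wt and 18 in SEP3tet. All of them overlapped a peak of the other list. In SEP3wt their median fold was 4.76, beside 5.04 for wide peaks with the summit in a gene, and in SEP3tet 5.18 beside 4.57. The 4 SEP3tet wide peaks with the highest fold were of this kind, whereas the 5 of SEP3wt with the highest fold had their summit in a gene, as the plot of fold against width shows.

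The SEP3tet peak with the highest fold was nearest to the carpel development gene SPT, with its summit 4622 bp from it; it measured 1467 bp and its SEP3wt partner 982 bp. RAV1, a transcription factor gene, came next with 2062 bp and a fold of 11.1 (chromosome 1, 4541668 to 4543729). Its summit lay 149 bp from the gene, and SEP3wt had peaks of 393 bp (fold 5.93) and 1002 bp (fold 3.65) there. JAZ10 followed with a fold of 10.3, 35 bp from the gene, and a peak 1466 bp from the auxin-induced gene SAUR15 with a fold of 10.1 and 1227 bp. The fifth was CBF2. In SEP3wt the 5 with the highest fold lay in AT4G32020, AT1G18740, SRC2, CBF2 and AT4G29780, with folds of 10.8, 10.7, 9.78, 9.57 and 9.41.

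**Figure D5:**
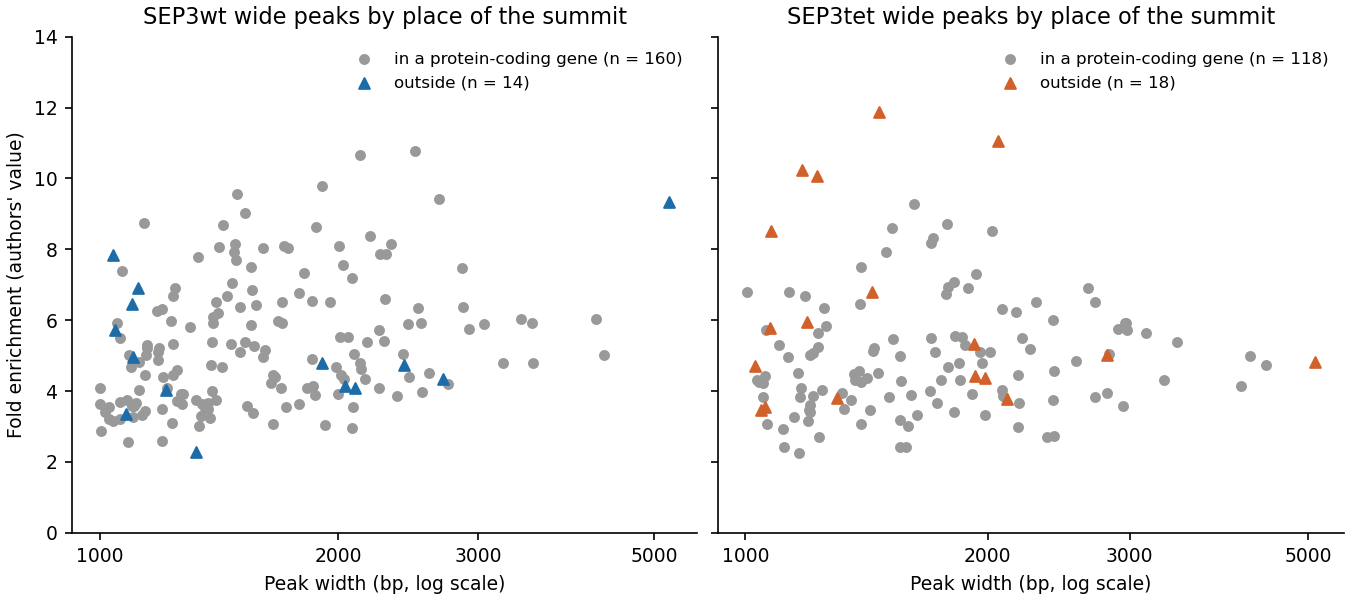
Authors' fold enrichment (y axis) against peak width (bp, log scale, x axis) for the wide peaks of SEP3wt (left) and SEP3tet (right); grey circles have the summit in a protein-coding gene, coloured triangles outside. In SEP3tet the 4 highest points, with folds of 10.1 to 11.9, are triangles.

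Other wide peaks with the summit outside protein-coding genes lay at genes of varied kinds, among them UBP6, NAC062, AtIPCS1, FER1, RBCS1A and AGP15. At AGL20 (SOC1), a promoter of flowering, a SEP3wt peak of 1119 bp (fold 6.91), its summit 17 bp from the gene, overlapped SEP3tet peaks of 604 and 500 bp. Beside TCP4, a regulator of organ growth, the peaks measured 1103 and 1192 bp, and near its relative TCP3 the SEP3tet peak measured 1437 bp and the SEP3wt peak 958 bp. Near AT1G09250 both lists had a peak of this kind, 1040 bp with a fold of 7.83 in SEP3wt and 1077 bp with a fold of 8.52 in SEP3tet. A few ran along non-coding genes. GUT15, a non-coding RNA gene known for its unstable transcript, was covered over 88.6% of its length by a SEP3wt peak of 2038 bp and over 81.7% by a SEP3tet peak of 1983 bp. The non-coding RNA gene AT4G36648 was covered over 95.1% and 94.8% by peaks of 2096 and 2112 bp. With genes of every type counted, 94.8% of SEP3wt and 89.7% of SEP3tet wide peaks had their summit in a gene.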

How the data were processed

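The samples were grouped by line and by antibody or pre-immune serum from their labels. The labels of both ChIP samples of a line name the same deposited peak list, which gave 2 lists in all. TAIR10 is the build in the submitters' processing notes, which name MACS2 2.2.7.1, Bowtie2 2.2.5, Trimmomatic 0.36 and deepTools as tools. The way replicates were combined, and any use of the mock as control, are not given in the sources used here. In the deposited lists each peak has an authors' fold enrichment (a ratio), a −log10 p and a −log10 q from the peak caller, and a score that equals 10 times the −log10 q without its decimals; score and −log10 p were not used. Starts, ends and summits are positions in bp in the deposited files and were counted from 1.

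Peaks over 1000 bp were taken and overlaps found with pandas 2.3.3 and numpy 2.4.6 (Python 3.11.15), code that was checked on simulated intervals; exact intervals came from scipy 1.17.1 (Clopper-Pearson, 95%) and plots from matplotlib 3.10.9. The 27444 protein-coding genes came from RefSeq's table of TAIR10.1, which has no strand, exons or sequence; none of its coordinates are printed. With the lists shifted by 10 distances against this table, 46.6 to 69.5% of SEP3wt and 41.9 to 68.4% of SEP3tet wide summits fell in genes, below the unshifted shares. The members and gene lists were chosen with earlier results of these data known. Genes were listed by symbol or synonym, without symbols that other genes share. Named are the 10 widest pairs, wide peaks with no partner, the 5 largest width differences in each direction, 3 peaks on either side of the threshold, the 5 highest folds per list, peaks over most genes, and up to 8 genes per list, widest first (in the cold and dehydration list, nearly all). Peaks with the summit outside genes, neighbouring regions and peaks over 2 genes at 50% or more were chosen after their values were seen. Alternatives were other widths, a −log10 q of at least 10, stricter overlaps and genes of every type. No test was made, because width chose the members and each line has 1 list.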

Additional observations from a re-analysis of the deposited data

How the results depend on the processing

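At over 1500 bp there were 89 SEP3wt and 77 SEP3tet wide peaks and 62 pairs wide in both, and 100% of the SEP3wt peaks were shared. With a −log10 q of at least 10, 90 SEP3tet wide peaks remained, and with that q in both lists 67.5% of SEP3wt and 93.3% of SEP3tet wide peaks were shared. Asking for an overlap of at least 50% of the wide peak gave 86.2% in SEP3wt and 94.1% in SEP3tet. The same rule over all peaks of each list gave 80.9% and 45.9%. Asking for at least 50% of both peaks gave 77.0% and 89.0% of wide peaks, beside 66.5% and 41.1% of all peaks. The SEP3wt shares of wide peaks thus lay nearer to those of all peaks than the SEP3tet shares did. For the q cut in both lists no share over all peaks is given. The share of pairs wider in SEP3wt was 47.9% with pairs that overlap no further peak, on the other side of 50%, against 59.6% for all pairs. In both sets the width threshold fixed the wider peak of pairs wide in 1 list alone. The cause was not tested. The other 20 alternative values, among them those for bases and summits in genes, moved less than the limits set for a change. Counts among these 20 still differed from those at over 1000 bp (174 SEP3wt peaks, 136 SEP3tet peaks and 116 pairs). At over 750 bp there were 220 SEP3wt and 202 SEP3tet peaks and 151 pairs with both peaks past that width. With a −log10 q of at least 10, 120 SEP3wt wide peaks remained. No paired analysis was possible because each line has 1 peak list with no values per replicate, so leaving out a replicate was not run either. Depth is unknown, and how far it sets peak widths was not tested.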
